A study of Mus musculus with 20 samples.

Results

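CD11c+CD11b- cells were compared with CD11c-CD11b+ cells sorted from the same MC38-OVA tumours of C57BL/6 mice, by RNA sequencing. The 10 libraries were chosen by their labelled population, 5 of each, out of 20 libraries in the series, and the libraries of a treatment pool were compared with each other. The labels call the first population dendritic cells and the second myeloid cells. CD11c (Itgax) and CD11b (Itgam) are the integrin chains on which the cells were sorted, so their own transcripts are no finding. The question was which genes separate the CD11c-only from the CD11b-only cells of these tumours, and whether that separation differed between treatments. The other 10 libraries hold CD11c+CD11b+ cells and CD8 T cells of the same pools, and are used here only as references.

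MC38-OVA is a mouse colon carcinoma line that carries the model antigen ovalbumin. Each library pooled the leukocytes of 10 tumours, 1 tumour from each of 10 mice, and no combination of population and treatment had a second library. Tumours received sham or 8 Gy of focal radiotherapy (RT) on day 12 and were taken on day 17, 5 days later. The 5 pools were untreated (sham), RT alone, RT with a SIRPa-blocking antibody (anti-SIRPa, 400 µg a dose), RT with a PD-1-blocking antibody (anti-PD-1, 250 µg a dose), and RT with both antibodies, called the triple pool below. Series of 5 values below follow that order. The animals' age is not used here, and no control antibody is named in the labels. Because a pool is also a treatment, each p-value measures a difference against its spread over 5 differently treated pools, not over repeats of a treatment. A lower level in such sorted bulk samples can mean fewer cells of a kind or less RNA per cell, and these cannot be told apart.

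Dendritic cells capture antigen and present it to T cells. Conventional type 1 dendritic cells (cDC1) pass on antigen from dead cells, and plasmacytoid dendritic cells (pDC) are known as producers of type I interferon. CD11c is also carried by natural killer (NK) cells, which kill target cells with perforin and granzymes, while CD11b is carried by monocytes, macrophages and neutrophils. SIRPa is an inhibitory receptor of myeloid cells that binds CD47, while PD-1 restrains activated lymphocytes.

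The 10 libraries held 22475552 to 29981185 (CD11c+CD11b-) and 25695925 to 29926650 (CD11c-CD11b+) assigned counts, and 0.944% to 1.42% and 0.913% to 1.90% of these were mitochondrial. No 2 libraries were alike within sampling noise, since over the 45 pairs the chi-square never fell under 13.8 times its degrees of freedom. The untreated pool stood apart in both populations: the summed level of 12 tumour and stroma genes was 5888 and 5562 CPM (counts scaled to library size) there, against 639 to 1664 CPM and 1159 to 2487 CPM in the irradiated pools. Most of that sum was the collagen gene Col3a1, at 4975 and 4782 CPM in the untreated pool. Epithelial keratin genes were near 0, with Krt8 at 0 to 0.0920 CPM and 0 to 0.530 CPM in the 2 populations. The part of stromal RNA in the results was not tested, and counts without the untreated pool are given for some of the lists. The sort itself was visible: Itgax was at 265, 347, 266, 393 and 335 CPM in CD11c+CD11b- cells and 122, 80.04, 71.6, 77.4 and 74.3 CPM in CD11c-CD11b+ cells, and Itgam was at 98.0, 117, 75.7, 57.9 and 66.5 CPM in CD11c+CD11b- cells and 749, 1450.3, 1050.3, 1874 and 1563 CPM in CD11c-CD11b+ cells.

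The populations differed widely. Of 18981 genes tested with edgeR's quasi-likelihood test with the pool as a block, 8928 (47.0%) passed a Benjamini-Hochberg adjusted p of 0.05. Of these, 4361 (23.0%) were higher in CD11c+CD11b- cells and 4567 (24.1%) were lower, and 8402 had the same direction in all 5 pools. With a change of more than 1 on the log2 scale, 1519 genes were higher and 2326 lower. The levels of the 5 and 5 libraries did not overlap for 5030 genes (26.5%). All counts of gene lists below are read against these shares, and their medians against the median log2 fold change of -0.0028 over all genes tested. Fold changes are CD11c+CD11b- over CD11c-CD11b+ throughout. Among the called genes, the median absolute log2 difference within a pool was 0.469 in the untreated pool and 0.879, 0.845, 0.979 and 0.954 in the irradiated pools. These genes were called from the same pools, so the choice of genes can affect these medians. Without that choice, the chi-square between the 2 libraries of a pool was 131 times its degrees of freedom in the untreated pool. In the irradiated pools it was 218 to 290 times. By both measures the 2 libraries of the untreated pool were closer to each other than those of the irradiated pools. Without the untreated pool, 9353 of 19212 genes (48.7%) passed, 4693 higher (24.4%) and 4660 lower (24.3%).

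The 10 named genes with the largest excess in CD11c+CD11b- cells all differed least in the untreated pool, as the plot of the 20 named genes shows. Klk1 (GRCm38, chr7:44225360-44229618, plus strand), a tissue kallikrein, was at 2.36, 57.2, 15.8, 81.6 and 47.5 CPM in CD11c+CD11b- cells and had 0 counts in all CD11c-CD11b+ libraries against 5260 counts. With 3 counts taken as the floor for those 5 libraries together, it was at least 1847-fold higher. Sept3, a septin best known from neurons, was at 1.66, 92.9, 23.6, 122 and 94.8 CPM in CD11c+CD11b- cells and 0.194, 0, 0, 0 and 0 CPM in CD11c-CD11b+ cells (log2 fold change 10.20 ± 0.98 (SE), adjusted p = 0.000259). In 4 of the 5 CD11c-CD11b+ libraries it had no count at all. Dntt, the template-independent polymerase of antigen receptor rearrangement, was at 1.29, 29.0, 7.28, 39.3 and 18.2 CPM in CD11c+CD11b- cells and 0.259, 0, 0.197, 0 and 0 CPM in CD11c-CD11b+ cells (log2 fold change 7.12 ± 1.06 (SE), adjusted p = 0.00168). The recombinase genes Rag1 and Rag2 that act beside it reached at most 0.227 and 0.151 CPM in CD11c+CD11b- cells and were too low to test. Timd4, a phosphatidylserine receptor, was at 2.12, 23.7, 6.57, 21.1 and 17.3 CPM in CD11c+CD11b- cells and 0.259, 0, 0, 0 and 0 CPM in CD11c-CD11b+ cells (log2 fold change 7.51 ± 1.00 (SE)). The others were the gene model D13Ertd608e (8.77), the calcium channel gene Cacna1e (7.35), the orphan receptor gene Gpr33 (7.08) and the receptor phosphatase gene Ptprf (6.75, log2 fold changes).

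The 10 named genes with the largest excess in CD11c-CD11b+ cells included 5 members of the neutrophil list. Alox15 (chr11:70344152-70352031, minus strand), which encodes the lipoxygenase of eosinophils and resident macrophages, was at 0.0920, 0.296, 0, 0 and 0 CPM in CD11c+CD11b- cells and 11.9, 35.7, 19.7, 41.4 and 38.4 CPM in CD11c-CD11b+ cells (log2 fold change -8.41 ± 0.55 (SE), adjusted p = 5.24e-05). In 3 of the 5 CD11c+CD11b- libraries it had no count. Cd300lb, an activating receptor of myeloid cells, was at 6.75, 18.3, 10.3, 28.8 and 15.4 CPM in CD11c-CD11b+ cells and had counts in only 1 CD11c+CD11b- library (log2 fold change -7.97 ± 0.67 (SE)). The chitinase-like genes and a stefin followed: Chil1 at -7.78, Chil3 at -6.98 and Stfa2l1 at -7.07 on the log2 scale. The other 5, Cxcr2, Retnlg, S100a9, Lcn2 and S100a8, are members of the neutrophil list and are described there.

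**Figure D1:**
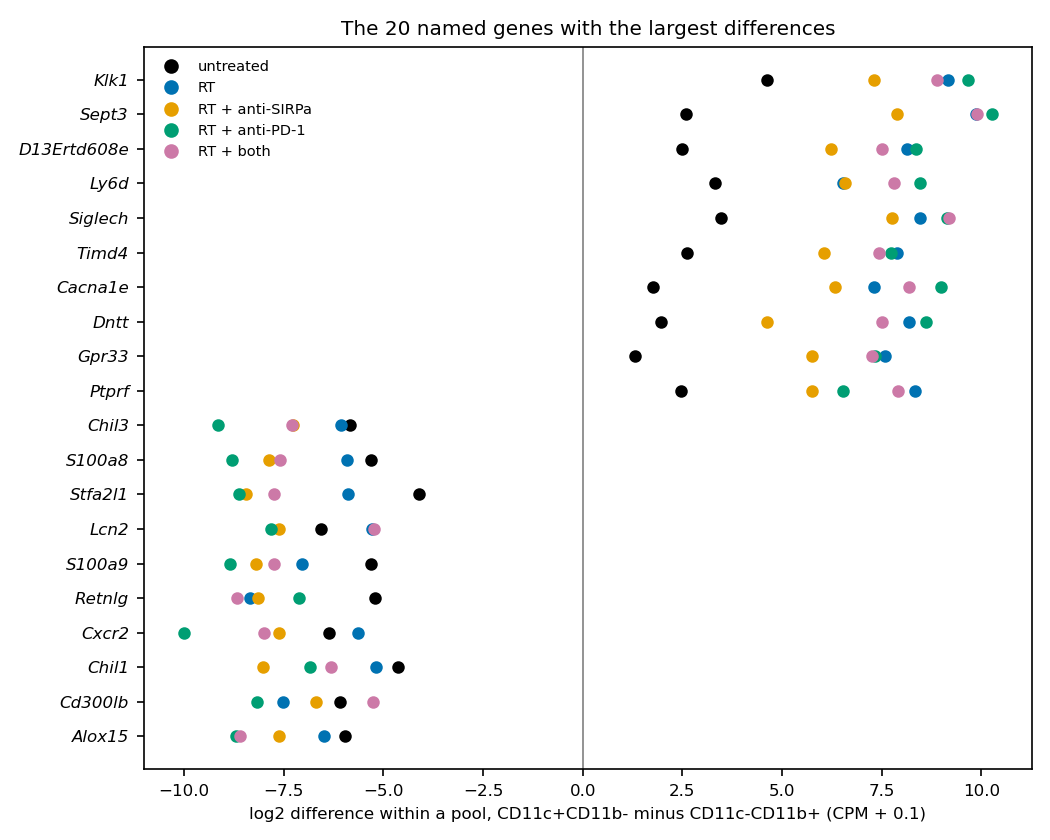
Log2 difference within each pool, CD11c+CD11b- minus CD11c-CD11b+, of log2(CPM + 0.1), for the 10 named genes highest in each population, 1 point a pool. The black points of the untreated pool lie nearest to 0 for all 10 upper genes, from 1.32 for Gpr33 to 4.62 for Klk1. No point of the 20 genes crosses 0, because the rule that chose them required the same direction in all 5 pools.

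NK cell genes were higher in CD11c+CD11b- cells in every pool. All 12 listed genes passed the test and were higher there, with a median log2 fold change of 4.47, and for all 12 the 2 sets of 5 libraries did not overlap. Their summed level was 1896, 2589, 3271, 2492 and 2894 CPM in CD11c+CD11b- cells and 71.6, 151, 99.5, 331 and 243 CPM in CD11c-CD11b+ cells. Ncr1 (chr7:4337724-4345164, plus strand), which encodes the activating receptor NKp46, was at 205, 267, 301, 239.9 and 281 CPM in CD11c+CD11b- cells and 2.75, 6.62, 3.19, 17.4 and 12.96 CPM in CD11c-CD11b+ cells (log2 fold change 5.21 ± 0.46 (SE), adjusted p = 0.000177). The lowest CD11c+CD11b- library was thus far above the highest CD11c-CD11b+ library. Klrb1c, the NK1.1 antigen, was at 211, 208, 276, 201 and 248 CPM in CD11c+CD11b- cells and 3.07, 8.52, 2.96, 18.3 and 16.0 CPM in CD11c-CD11b+ cells (log2 fold change 4.85 ± 0.51 (SE)). Eomes, a T-box transcription factor of NK and memory T cells, was at 177, 197, 277, 189 and 211 CPM in CD11c+CD11b- cells and 7.76, 11.3, 8.60, 20.6 and 18.1 CPM in CD11c-CD11b+ cells (4.06 ± 0.28 (SE)). Its relative Tbx21 (T-bet) was at 60.7, 82.6, 103, 92.4 and 95.9 CPM in CD11c+CD11b- cells and 1.94, 4.10, 3.47, 6.81 and 7.39 CPM in CD11c-CD11b+ cells (4.30 ± 0.23 (SE)). Among the receptor genes of the Ly49 and NKG2 families, Klra8 was higher by 5.40, Klrk1 by 3.15, Klrd1 by 4.29 and Klre1 by 4.57 on the log2 scale. Klra4 had the smallest excess but for S1pr5, 2.29, and was also at 16.5 to 31.6 CPM in CD11c-CD11b+ cells. The Klra genes are near-identical copies whose reads may be shared, so their single values are uncertain.

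Cytotoxic effector genes were mostly higher too. Of 14 tested, 12 were higher in CD11c+CD11b- cells and 1 was lower, with a median of 3.77. Gzmb, the granzyme that activates caspases in a target cell, was at 1464, 2087, 2862, 1759.5 and 2053 CPM in CD11c+CD11b- cells and 32.4, 110.1, 88.7, 239.6 and 186 CPM in CD11c-CD11b+ cells (log2 fold change 4.21 ± 0.42 (SE), adjusted p = 0.000303). Prf1, the pore-forming perforin, was at 606, 932, 1213, 885 and 955 CPM in CD11c+CD11b- cells and 14.1, 47.2, 36.5, 109 and 83.7 CPM in CD11c-CD11b+ cells (4.25 ± 0.39 (SE)). Neither gene's libraries overlapped between the populations. Gzma and Gzmc differed by 4.79 and 4.56, the granule protein genes Nkg7 and Ctsw by 3.95 and 4.55, and the death ligand gene Fasl by 3.74 on the log2 scale. Ifng, which encodes interferon gamma, was at 51.4, 83.9, 108, 70.6 and 91.4 CPM in CD11c+CD11b- cells and 3.78, 8.29, 12.6, 16.9 and 10.1 CPM in CD11c-CD11b+ cells (3.08 ± 0.23 (SE)). Xcl1, the chemokine that draws XCR1-bearing cDC1, was at 201, 152, 181, 101 and 125 CPM in CD11c+CD11b- cells and 2.65, 3.29, 2.29, 3.89 and 4.24 CPM in CD11c-CD11b+ cells (log2 fold change 5.51 ± 0.29 (SE), adjusted p = 2.72e-05). The member that was lower was Srgn (-1.48), the serglycin core protein that myeloid granules also contain, and Tnfsf10 (TRAIL) did not pass (0.65 ± 0.23 (SE), adjusted p = 0.0549). Granzyme genes lie in clusters of similar copies, and reads shared between them were not resolved here.

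Of the 28 cytokine receptor genes tested, 11 were higher in CD11c+CD11b- cells and 12 lower (median 0.12). Il2rb, the shared beta chain of the interleukin 2 and 15 receptors, was at 1391, 1760.0, 2190.0, 1811 and 1817 CPM in CD11c+CD11b- cells and 31.9, 83.9, 65.9, 155 and 149 CPM in CD11c-CD11b+ cells (log2 fold change 4.402 ± 0.33 (SE), adjusted p = 9.28e-05). Il18r1 was higher by 3.67, Il12rb2 by 3.19 and Il27ra by 3.85 on the log2 scale. The lower ones included Csf1r and Csf3r, the growth factor receptors of macrophages and neutrophils. All 10 inhibitory receptor genes of lymphocytes were higher in CD11c+CD11b- cells, with a median of 3.32. Tigit was at 46.2, 49.4, 66.2, 51.1 and 64.6 CPM in CD11c+CD11b- cells and 1.94, 2.56, 2.48, 6.70 and 5.68 CPM in CD11c-CD11b+ cells (3.97 ± 0.29 (SE)), and Cd96, which shares its ligands, differed by 4.17. Klrc1, the NKG2A chain, differed by 4.01 and Lag3 by 3.16. Btla, an inhibitory receptor also found on dendritic cells, was at 5.27, 54.4, 21.4, 76.4 and 61.5 CPM in CD11c+CD11b- cells, lowest in the untreated pool, against 1.39 to 2.52 CPM in CD11c-CD11b+ cells.

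T cell genes were present at a low level in both populations. Of 12 tested, 6 were higher in CD11c+CD11b- cells, none was lower and 6 did not pass (median 0.75). Without the untreated pool 8 were higher. The summed level was 290.4 to 509.5 CPM in CD11c+CD11b- cells and 48.1 to 86.1 CPM in CD11c-CD11b+ cells, against 3055 to 4628 CPM in the CD8 T cell libraries of the 4 irradiated pools. The CD8 T library of the untreated pool was left out of that range, because its T cell sum was 215 CPM and its macrophage sum 19491 CPM, against its label. Cd3e, which T cells need to display their antigen receptor, was at 3.62, 5.99, 12.0, 5.39 and 6.15 CPM in CD11c+CD11b- cells and 5.91, 5.34, 8.56, 5.89 and 7.31 CPM in CD11c-CD11b+ cells, and did not pass (-0.09 ± 0.19 (SE), adjusted p = 0.734). Those levels compare with 381 to 575 CPM in the irradiated CD8 T libraries. The T cell genes that passed include Lck (4.02), Cd247 (3.40) and Cd28 (3.33), of which Lck and Cd247 are also used by NK cells. Cd4 was at 5.83, 56.8, 19.4, 72.7 and 35.2 CPM in CD11c+CD11b- cells and 2.36, 1.97, 2.17, 1.42 and 1.59 CPM in CD11c-CD11b+ cells (3.92 ± 0.63 (SE)), with the untreated library lowest. Of the B cell genes, Ms4a1 was at 0 to 0.245 CPM in CD11c+CD11b- cells and too low to test. T cells can contribute to the cytotoxic genes above, and their part was not tested.

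Plasmacytoid dendritic cell genes were higher in CD11c+CD11b- cells, with the smallest differences in the untreated pool. Of 12 tested, 9 were higher and none lower (median 3.78, also with Klk1 set to its bound). Without the untreated pool 11 were higher. Siglech (chr7:55768178-55778925, plus strand), a sialic acid-binding receptor that marks these cells, was at 10.98, 172, 47.3, 232 and 124 CPM in CD11c+CD11b- cells and 0.905, 0.387, 0.118, 0.308 and 0.114 CPM in CD11c-CD11b+ cells (log2 fold change 7.82 ± 0.90 (SE), adjusted p = 0.000562). Its libraries did not overlap, and the untreated CD11c+CD11b- library was the lowest of its 5. Ccr9, a gut-homing chemokine receptor, was at 9.81, 164, 48.5, 236 and 128 CPM in CD11c+CD11b- cells and 4.04, 7.59, 2.997, 6.58 and 8.68 CPM in CD11c-CD11b+ cells (3.84 ± 0.54 (SE)). Ly6d, a marker of lymphoid-derived precursors, was at 1.87, 27.1, 9.55, 35.1 and 22.5 CPM in CD11c+CD11b- cells and had no count in 3 of the 5 CD11c-CD11b+ libraries (8.10 ± 0.68 (SE)). Pacsin1, an endocytic adaptor that these cells need for interferon production, was at 4.26, 44.6, 12.6, 61.6 and 32.0 CPM in CD11c+CD11b- cells and 0.873, 1.82, 0.946, 1.31 and 1.17 CPM in CD11c-CD11b+ cells (4.29 ± 0.44 (SE)). The transcription factor genes Spib and Runx2 were higher by 4.36 and 1.73. Tcf4, which encodes the lineage factor E2-2, was at 289, 194, 158, 261 and 213 CPM in CD11c+CD11b- cells and 275, 191, 167, 157 and 178 CPM in CD11c-CD11b+ cells and did not pass (0.20 ± 0.12 (SE), adjusted p = 0.231). Cox6a2 and Ptprs also missed the threshold, at 2.20 ± 0.79 (SE) and 0.63 ± 0.24 (SE).

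The cDC1 genes also differed least in the untreated pool. Of 12 tested, 9 were higher in CD11c+CD11b- cells, none was lower, and the median was 2.34. Without the untreated pool 11 were higher. Their summed level was 861, 3366, 1967, 4037 and 3302 CPM in CD11c+CD11b- cells and 516, 765, 615, 873 and 875 CPM in CD11c-CD11b+ cells, so that it was lowest in the untreated CD11c+CD11b- library. Clec9a (chr6:129408862-129424763, plus strand), the receptor for actin of dead cells, was at 7.14, 52.6, 23.9, 67.1 and 54.8 CPM in CD11c+CD11b- cells and 4.52, 3.68, 3.55, 1.92 and 2.16 CPM in CD11c-CD11b+ cells (log2 fold change 3.43 ± 0.66 (SE), adjusted p = 0.0048). Xcr1, the receptor of the chemokine Xcl1, was at 8.25, 69.9, 30.2, 75.6 and 65.4 CPM in CD11c+CD11b- cells and 2.59, 7.67, 3.31, 6.47 and 5.87 CPM in CD11c-CD11b+ cells (log2 fold change 3.05 ± 0.28 (SE), adjusted p = 0.000202). Itgae (CD103), an integrin chain of cDC1 and of tissue-resident lymphocytes, was at 18.8, 187, 72.1, 223 and 176 CPM in CD11c+CD11b- cells and 3.78, 2.05, 1.73, 1.35 and 0.985 CPM in CD11c-CD11b+ cells (5.82 ± 0.83 (SE)). Irf8, the transcription factor that cDC1 and pDC require, was at 563, 1415, 1164, 1686 and 1414 CPM in CD11c+CD11b- cells and 99.7, 193, 147, 267 and 265 CPM in CD11c-CD11b+ cells (log2 fold change 2.68 ± 0.11 (SE), adjusted p = 1.55e-05). Batf3, its partner in cDC1, was at 2.51, 14.7, 6.24, 17.6 and 11.8 CPM in CD11c+CD11b- cells and 2.13, 2.56, 2.64, 2.12 and 1.63 CPM in CD11c-CD11b+ cells (2.01 ± 0.44 (SE)), and the untreated CD11c+CD11b- library overlapped with the other population. The listed genes Gcsam and Snx22 differed by 6.54 and 3.15. Naaa, Ppt1 and Cadm1 did not pass, at 0.71 ± 0.35 (SE), 0.05 ± 0.15 (SE) and 1.25 ± 0.78 (SE).

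Genes common to the dendritic cell lineage were all 5 higher in CD11c+CD11b- cells. Flt3, the receptor of the growth factor on which these cells depend, was at 20.5, 184, 80.8, 254 and 184 CPM in CD11c+CD11b- cells and 4.78, 4.41, 5.99, 5.73 and 7.12 CPM in CD11c-CD11b+ cells (log2 fold change 4.32 ± 0.53 (SE), adjusted p = 0.000744). Zbtb46, a transcription factor of conventional dendritic cells, was at 19.4, 82.0, 42.9, 103 and 78.7 CPM in CD11c+CD11b- cells and 8.43, 4.45, 5.80, 3.27 and 4.47 CPM in CD11c-CD11b+ cells (3.49 ± 0.55 (SE)). Kit, from the list of cytokine receptors and found on precursors, mast cells and some dendritic and NK cells, differed by 4.89 ± 0.29 (SE). Of 7 tested genes of type 2 dendritic cells, 6 were higher (median 1.95), such as the lectin gene Mgl2 at 4.72, 41.5, 10.3, 37.9 and 27.5 CPM in CD11c+CD11b- cells and 5.88, 3.91, 1.93, 4.27 and 2.92 CPM in CD11c-CD11b+ cells (2.46 ± 0.57 (SE)). Of the 12 genes of mature, migrating dendritic cells, 11 were higher (median 2.12). Ccr7, the receptor that guides cells to lymph nodes, was at 35.9, 269, 119.8, 323 and 226 CPM in CD11c+CD11b- cells and 4.04, 3.29, 2.44, 1.58 and 2.27 CPM in CD11c-CD11b+ cells (log2 fold change 5.89 ± 0.67 (SE), adjusted p = 0.000515). Ccl22, a chemokine of mature dendritic cells, was at 52.6, 452, 178, 423 and 355 CPM in CD11c+CD11b- cells and 6.50, 2.83, 3.43, 2.54 and 2.84 CPM in CD11c-CD11b+ cells (6.14 ± 0.75 (SE)). Il12b, a chain of interleukin 12, was at 14.8, 124, 51.2, 131 and 108 CPM in CD11c+CD11b- cells and 1.97, 0.348, 0.986, 0 and 0.796 CPM in CD11c-CD11b+ cells (6.43 ± 0.98 (SE)). In each of these 3 genes the lowest CD11c+CD11b- library, the untreated, was still above the highest CD11c-CD11b+ library. Relb and Cd83 differed by 1.12 and 1.498, and Il15ra did not pass (0.17 ± 0.10 (SE)).

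**Figure D2:**
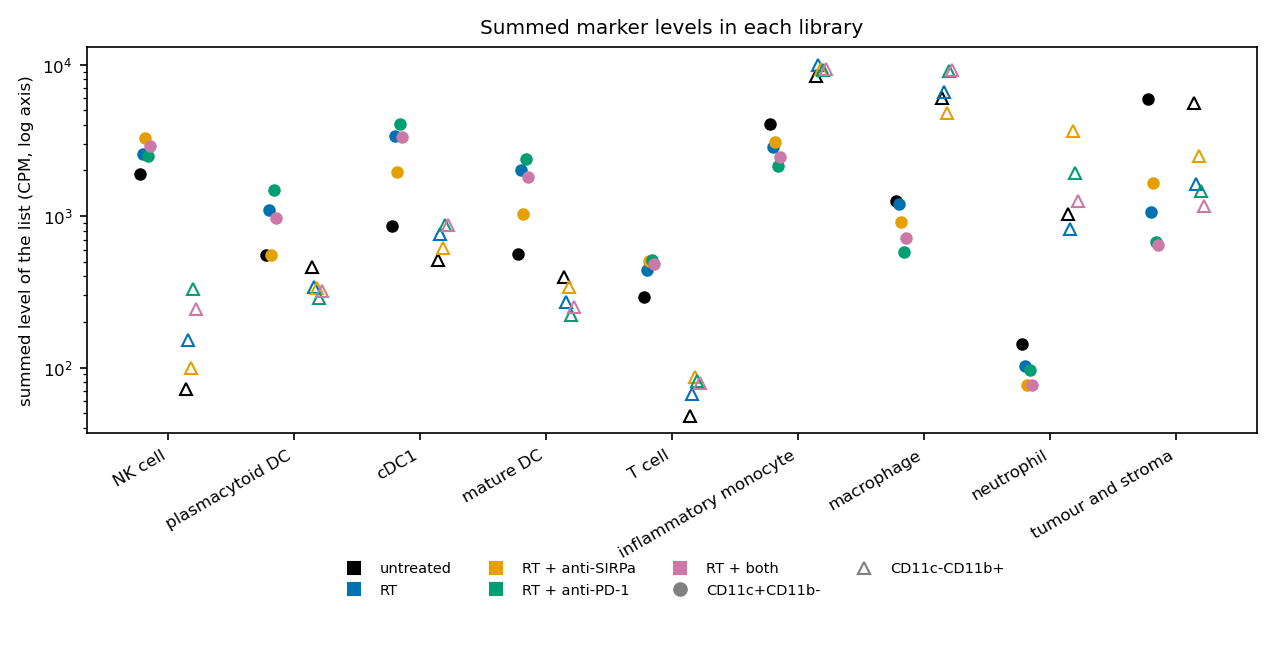
Summed level of the genes of 9 marker lists in each library, in CPM on a log axis, with filled circles for CD11c+CD11b- and open triangles for CD11c-CD11b+ cells and 1 colour a pool. Sums of the 2 populations overlap only for cDC1 and for tumour and stroma genes. The lowest CD11c+CD11b- sum for cDC1, 861 CPM (untreated), lies below the highest CD11c-CD11b+ sum, 875 CPM. For pDC the lowest CD11c+CD11b- sums, 550.0 (untreated) and 550.5 CPM (RT plus anti-SIRPa), lie nearest to those of CD11c-CD11b+ cells. Tcf4, which did not pass the test, was a large part of both sums. Their near-equality therefore does not hold for the other pDC genes, such as Siglech, which was lower in the untreated library. Both untreated libraries lead the tumour and stroma sum.

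The label of dendritic cells for CD11c+CD11b- cells was thus met by Flt3, Zbtb46, Clec9a, Xcr1 and Siglech, but not by every listed gene. The pDC genes Tcf4, Cox6a2 and Ptprs and the cDC1 genes Naaa, Ppt1 and Cadm1 did not pass. In the untreated pool the pDC and cDC1 lists differed least, and the median of the MHC class II genes was -1.16 on the log2 scale. The CD11c+CD11b- libraries also held NK genes that define another cell type, at 1896 to 3271 CPM in sum. In the untreated and the RT plus anti-SIRPa libraries the NK sums of 1896 and 3271 CPM were above the cDC1 sums of 861 and 1967 CPM, and in the other 3 they were below. The order in those 3 depended on Irf8, a large part of the cDC1 sum that pDC also require. The sums therefore do not rank the cell types. In the CD11c+CD11b+ libraries the NK sum was 133 to 226 CPM. How many cells of each kind the CD11c+CD11b- gate held was not measured.

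Neutrophil genes were lower in CD11c+CD11b- cells. All 13 tested genes of 15 listed were lower in CD11c+CD11b- cells, with a median of -5.67, and 11 of them did not overlap. Without the untreated pool 11 of 12 were lower. Camp and Elane, made at early stages of granule formation, were at most 0.323 and 0.552 CPM in CD11c-CD11b+ cells and could not be tested. The summed level was 1032, 827, 3666, 1939 and 1253 CPM in CD11c-CD11b+ cells, highest in the RT plus anti-SIRPa pool, and 144, 102, 76.7, 96.2 and 77.0 CPM in CD11c+CD11b- cells. S100a9 (chr3:90692632-90695721, minus strand), a calcium-binding protein of neutrophils and monocytes, was at 8.00, 1.29, 4.79, 1.21 and 1.47 CPM in CD11c+CD11b- cells and 321, 183, 1443, 605 and 337 CPM in CD11c-CD11b+ cells (log2 fold change -7.45 ± 0.58 (SE), adjusted p = 0.000103). Its partner S100a8 was at 4.42, 1.55, 2.93, 0.627 and 0.755 CPM in CD11c+CD11b- cells and 179, 99.4, 706, 324 and 164 CPM in CD11c-CD11b+ cells (-7.06 ± 0.58 (SE)). Cxcr2, the chemokine receptor of neutrophils, was at 0.276, 0.666, 0.706, 0 and 0.151 CPM in CD11c+CD11b- cells and 30.8, 38.0, 158, 103 and 64.1 CPM in CD11c-CD11b+ cells (log2 fold change -7.62 ± 0.55 (SE), adjusted p = 7.63e-05). Its neighbour and near relative Cxcr1 had no count in any CD11c+CD11b- library and 359 counts in CD11c-CD11b+ cells, which makes it at least 114-fold lower in CD11c+CD11b- cells. The CD11c-CD11b+ library of the RT plus anti-SIRPa pool was the highest for each of these. Csf3r, the receptor of the neutrophil growth factor G-CSF, was at 7.36, 9.21, 7.43, 5.89 and 6.72 CPM in CD11c+CD11b- cells and 154, 199, 523, 372 and 296 CPM in CD11c-CD11b+ cells (-5.28 ± 0.33 (SE)). Ly6g, which defines neutrophils, was low even in CD11c-CD11b+ cells, at 1.13, 0.387, 4.53, 0.962 and 0.606 CPM (-5.67 ± 0.90 (SE)). Lcn2, Retnlg, G0s2 and Mmp8 differed by -7.18, -7.46, -6.20 and -5.40 on the log2 scale.

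Promoters of neutrophil genes were searched for the binding motif of C/EBP factors, which drive myeloid granule genes, since the C/EBP genes differed too. Cebpb was at 46.5, 37.7, 30.5, 30.2 and 27.7 CPM in CD11c+CD11b- cells and 212, 359, 467, 511 and 449 CPM in CD11c-CD11b+ cells (log2 fold change -3.51 ± 0.30 (SE), adjusted p = 0.000166), Cebpa differed by -2.53, Cebpd by -1.64 and Cebpe, the factor of granulocyte maturation, by -4.92. The letters TTGCNNAA were found on either strand in the 250 bases before the start of 7 of 14 listed neutrophil genes with a RefSeq promoter (50%), against 2582 of 27025 promoters overall (9.55%). It was also in 3 of 8 pDC (37.5%) and 3 of 10 NK cell promoters (30%), lists that were higher in CD11c+CD11b- cells. Among called genes with a RefSeq promoter, 281 of 3068 (9.16%) of those lower in CD11c+CD11b- cells held it, and 224 of 3054 (7.34%) of those higher. The lines below show 80 bases of 4 of these promoters, from RefSeq on GRCm38.p6, 5′ to 3′ on the gene's strand, with the match in capitals. The first 3 had the largest differences among the neutrophil genes with a match, and Mmp8 is shown because its match lies at positions -19 to -12 from the start. In Retnlg the match is on the opposite strand and so appears as its reverse complement. No match overlaps another, and a match is a description of letters, not of binding.
Retnlg, chr16:48872358-48872437, plus strand: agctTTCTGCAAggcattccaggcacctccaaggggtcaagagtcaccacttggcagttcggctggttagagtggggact
S100a9, chr3:90695892-90695971, minus strand: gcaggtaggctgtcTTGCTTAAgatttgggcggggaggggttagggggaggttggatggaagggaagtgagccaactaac
Lcn2, chr2:32387910-32387989, minus strand: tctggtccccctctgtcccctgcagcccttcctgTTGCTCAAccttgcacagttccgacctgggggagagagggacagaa
Mmp8, chr9:7558349-7558428, plus strand: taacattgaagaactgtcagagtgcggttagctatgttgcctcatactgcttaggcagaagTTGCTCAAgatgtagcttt

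Genes of inflammatory monocytes were lower in CD11c+CD11b- cells, with a median nearer to 0 than that of the neutrophil genes. Of 12 tested, 10 were lower, 1 higher and 1 did not pass (Ccr2), with a median of -2.39. Ly6c2 (chr15:75108158-75111970, minus strand), the surface antigen of these cells, was at 49.2, 299, 174, 301 and 252 CPM in CD11c+CD11b- cells and 155, 679, 409, 645 and 625 CPM in CD11c-CD11b+ cells (log2 fold change -1.30 ± 0.10 (SE), adjusted p = 8.47e-05). The difference held within each pool, while the 2 sets of libraries overlapped, and the untreated pool was low in both populations. Ccr2 (chr9:124101950-124113557, plus strand), the receptor that brings monocytes out of the marrow, was at 287, 408, 452, 385 and 456 CPM in CD11c+CD11b- cells and 281, 592, 389, 649 and 516 CPM in CD11c-CD11b+ cells (-0.25 ± 0.15 (SE), adjusted p = 0.206). It was higher in CD11c+CD11b- cells in 2 of 5 pools and lower in 3. Chil3, a secreted chitinase-like protein, was at 5.34, 4.62, 2.23, 0.460 and 2.08 CPM in CD11c+CD11b- cells and 309, 316, 356, 317 and 344 CPM in CD11c-CD11b+ cells (log2 fold change -6.98 ± 0.50 (SE), adjusted p = 7.1e-05). F13a1, a clotting factor subunit, was at 27.0, 21.0, 13.9, 13.5 and 15.3 CPM in CD11c+CD11b- cells and 306, 495, 360.2, 703 and 602 CPM in CD11c-CD11b+ cells (-4.76 ± 0.33 (SE)). Both were far below the CD11c-CD11b+ libraries in every pool. Fn1, which encodes fibronectin, was at 2881, 1020.5, 1475, 376 and 675 CPM in CD11c+CD11b- cells and 5915, 5524, 5540.5, 4187 and 4667 CPM in CD11c-CD11b+ cells (-2.34 ± 0.34 (SE)). Like the tumour and stroma sum, Fn1 was highest in the untreated library of both populations, and the part of stromal RNA in it was not tested. Fn1 was also a large part of the summed monocyte level of CD11c-CD11b+ cells. Hp, F10 and the endotoxin co-receptor gene Cd14 differed by -6.52, -5.49 and -4.41.

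**Figure D3:**
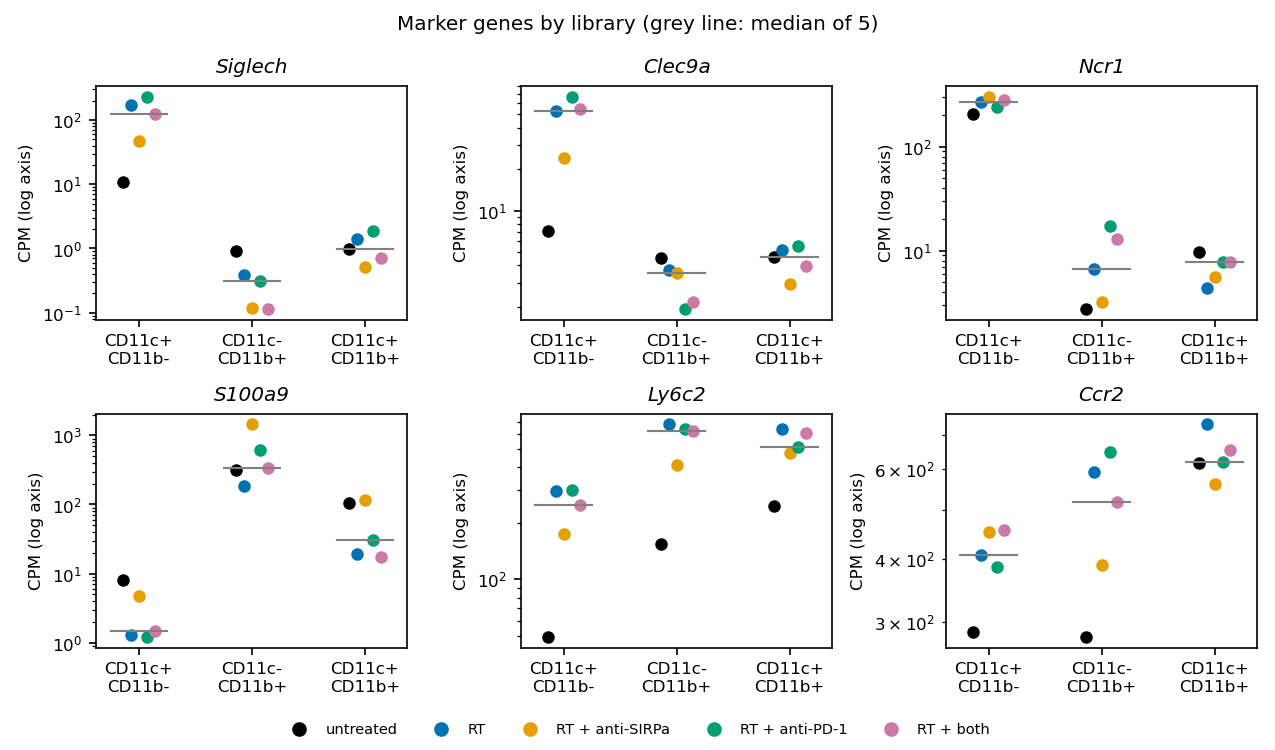
Levels of 6 marker genes in CPM (log axes) by population, 1 point a library coloured by pool, with a grey line at the median of 5. Siglech, Clec9a and Ncr1 lie above the CD11c-CD11b+ libraries in all CD11c+CD11b- libraries, S100a9 lies below them, and Ly6c2 and Ccr2 overlap between the populations.

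Macrophage genes were lower in CD11c+CD11b- cells for 13 of 14 tested, with a median of -2.78, and those 13 did not overlap between the sets of libraries. The summed level was 1252, 1194, 911, 576 and 719 CPM in CD11c+CD11b- cells and 6053, 6585, 4771, 9132 and 9145 CPM in CD11c-CD11b+ cells. Csf1r, the receptor of the macrophage growth factor, was at 120.1, 117, 71.2, 60.4 and 60.9 CPM in CD11c+CD11b- cells and 694, 995, 685, 1217 and 1216 CPM in CD11c-CD11b+ cells (log2 fold change -3.51 ± 0.30 (SE), adjusted p = 0.000162). Adgre1, the F4/80 antigen, was at 40.04, 34.3, 27.9, 16.1 and 25.9 CPM in CD11c+CD11b- cells and 234, 263, 184, 332 and 316 CPM in CD11c-CD11b+ cells (-3.23 ± 0.28 (SE)). For both genes the lowest CD11c-CD11b+ library was several-fold above the highest CD11c+CD11b- library. The complement genes C1qa, C1qb and C1qc differed by -2.47, -2.61 and -2.48. Cd163, a haemoglobin scavenger receptor, was low in both populations and did not pass (-0.11 ± 0.51 (SE)). Of 12 genes of lipid-associated macrophages 11 were lower, among them the lipid receptor gene Trem2 (-3.22), Apoe (-2.96) and the cholesterol exporter gene Abca1 (-3.32). Spp1, which encodes osteopontin, was at 289.6, 475, 551, 435 and 488 CPM in CD11c+CD11b- cells and 306, 582, 400.3, 849 and 539 CPM in CD11c-CD11b+ cells and did not pass (-0.21 ± 0.18 (SE), adjusted p = 0.384).

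Transcription factors of the lineages were found on either side. Of 28 tested, 15 were higher and 12 lower in CD11c+CD11b- cells. Spi1 (PU.1), which myeloid cells need in quantity, was at 20.7, 91.2, 36.8, 87.3 and 67.8 CPM in CD11c+CD11b- cells and 107, 193, 166, 238 and 217 CPM in CD11c-CD11b+ cells (-1.75 ± 0.19 (SE)). Zeb2 and Maf differed by -2.50 and -2.75. Tcf7, Lef1 and Gata3, factors of lymphocytes, were higher by 2.81, 2.72 and 2.41. Id2, an inhibitor of E proteins in NK cells and conventional dendritic cells, was higher by 1.25, and Irf4 by 1.44. Of 8 tested genes of mast cells, basophils and eosinophils, the mast cell protease genes Mcpt2 (2.95) and Tpsb2 (2.79) were higher in CD11c+CD11b- cells, whereas Siglecf (-4.47) and Ccr3 (-6.41), carried by eosinophils, were lower. Ccr3 was at 0, 0.333, 0.111, 0.293 and 0.113 CPM in CD11c+CD11b- cells and 6.33, 17.3, 9.86, 19.2 and 15.9 CPM in CD11c-CD11b+ cells. Without the RT plus anti-SIRPa pool 1 gene of that list was higher in CD11c+CD11b- cells instead of 3.

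Genes of the lysosome were lower in CD11c+CD11b- cells without exception among those listed: all 20 tested passed, with a median of -1.32. The cathepsin gene Ctss was at 306, 620.4, 342, 518 and 481 CPM in CD11c+CD11b- cells and 1443, 2304, 1514, 2964 and 2625 CPM in CD11c-CD11b+ cells (log2 fold change -2.25 ± 0.11 (SE), adjusted p = 2.06e-05), and Lgmn, a lysosomal protease that starts antigen processing, differed by -2.55. Of 6 Fc receptor genes 5 were lower. Fcgr1, the high-affinity IgG receptor, was at 31.6, 71.2, 39.6, 38.0 and 41.4 CPM in CD11c+CD11b- cells and 189, 544, 357, 695 and 650.3 CPM in CD11c-CD11b+ cells (-3.37 ± 0.26 (SE)), and the inhibitory Fcgr2b differed by -3.25. The neonatal receptor gene Fcgrt was at 25.7, 45.5, 19.5, 52.2 and 40.3 CPM in CD11c+CD11b- cells and 37.0, 20.5, 23.3, 22.2 and 20.4 CPM in CD11c-CD11b+ cells and did not pass (0.52 ± 0.30 (SE)). Of 12 complement genes 10 were lower and 1 higher. C3, the central complement protein, differed by -3.74 and its receptor gene C3ar1 by -3.59, while Cd55, which protects cells from complement, was higher by 3.36. C5ar2 had no count in any CD11c+CD11b- library and 0, 6.78, 9.82, 25.9 and 19.3 CPM in CD11c-CD11b+ cells, and was not tested because of the filter on low counts.

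Receptors that sense microbes and dead cells were mostly lower, with exceptions. Of 17 genes of the Toll-like receptor system, 13 were lower in CD11c+CD11b- cells and 3 higher. Tlr2, which senses lipopeptides, was at 31.4, 36.7, 18.2, 18.7 and 24.5 CPM in CD11c+CD11b- cells and 215, 382, 281, 448 and 394 CPM in CD11c-CD11b+ cells (log2 fold change -3.74 ± 0.26 (SE), adjusted p = 6.84e-05), and the endotoxin receptor gene Tlr4 differed by -2.35. The higher ones were Tlr3 (0.61), Tlr11 (2.99) and Tlr12 (2.86). The nucleic acid sensors of pDC, Tlr7 and Tlr9, were lower in CD11c+CD11b- cells (-1.62 and -1.30). Of 17 C-type lectin genes, 11 were lower and 5 higher. Clec4e (Mincle), a receptor for mycobacterial glycolipid, was at 8.28, 6.96, 5.39, 4.31 and 4.83 CPM in CD11c+CD11b- cells and 107, 216, 232, 299 and 231 CPM in CD11c-CD11b+ cells (log2 fold change -5.15 ± 0.36 (SE), adjusted p = 6.78e-05), and its neighbour Clec4d differed by -5.16. Of 16 genes of dead cell uptake 11 were lower, such as the receptor kinase genes Mertk (-2.43) and Axl (-1.31), and 3 were higher, among them Timd4 and Itgb3 (2.93). Of 8 CD300 genes 7 were lower, and Cd300c was higher by 5.75.

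Of the 4 genes that encode the receptors targeted by the antibodies and their ligands, 2 were higher and 2 lower in CD11c+CD11b- cells. Sirpa, the target of the first antibody, was at 97.8, 158, 85.0, 121 and 99.1 CPM in CD11c+CD11b- cells and 425, 683, 480.1, 853 and 775 CPM in CD11c-CD11b+ cells (log2 fold change -2.51 ± 0.15 (SE), adjusted p = 3.89e-05). Its level in CD11c-CD11b+ cells was the higher in every pool, with no overlap. Cd47, its ligand, was at 458, 663, 611, 661 and 683 CPM in CD11c+CD11b- cells and 337, 468, 365, 539 and 477 CPM in CD11c-CD11b+ cells (log2 fold change 0.50 ± 0.08 (SE), adjusted p = 0.00271), with overlapping libraries. It was the higher in CD11c+CD11b- cells in every pool. Pdcd1, which encodes PD-1, was at 4.29, 14.7, 14.1, 17.7 and 20.6 CPM in CD11c+CD11b- cells and 2.004, 4.10, 6.74, 3.58 and 3.75 CPM in CD11c-CD11b+ cells (log2 fold change 1.76 ± 0.25 (SE), adjusted p = 0.00131). Cd274, its ligand PD-L1, was at 72.7, 209.8, 135, 263 and 224 CPM in CD11c+CD11b- cells and 131, 343, 303, 705 and 511 CPM in CD11c-CD11b+ cells (log2 fold change -1.07 ± 0.11 (SE), adjusted p = 0.00039), while the second ligand gene Pdcd1lg2 was higher by 2.41. Of 10 genes of phagocytosis checkpoints, 7 were lower, including Pirb (-1.999) and Lrp1 (-3.09). The 3 Sirpb1 copies were among them, at -3.33 to -3.99, and such near-identical copies may share reads. Of 15 costimulatory and inhibitory ligand genes, 9 were lower, such as Vsir (-1.87) and Cd86 (-0.73). Tnfsf4 (OX40 ligand) was higher by 3.47, and Cd80 and Cd40 did not pass (-0.34 ± 0.24 (SE) and -0.30 ± 0.20 (SE)).

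MHC class II genes, which present antigen to CD4 T cells, differed by pool. Of 11 tested, 4 were higher in CD11c+CD11b- cells, 1 (Ctss) was lower and 6 did not pass (median 0.93). Without the untreated pool 8 were higher, and without the RT-alone pool or the triple pool 2 were. The median difference within a pool was -1.16, 1.68, 0.87, 1.76 and 1.33 on the log2 scale. H2-Ab1, a class II beta chain, was at 207, 1263, 459, 1434 and 1074 CPM in CD11c+CD11b- cells and 464, 393, 270.1, 424 and 427 CPM in CD11c-CD11b+ cells (0.92 ± 0.42 (SE), adjusted p = 0.113). It was lower in CD11c+CD11b- cells in the untreated pool and higher there in the 4 irradiated pools. Cd74, the invariant chain, followed, at 607.7, 3024, 1202, 3529 and 2475 CPM in CD11c+CD11b- cells and 1423, 1352, 908, 1478 and 1522 CPM in CD11c-CD11b+ cells (0.49 ± 0.35 (SE), adjusted p = 0.292). H2-Oa and H2-Ob, which restrain peptide loading, were higher by 3.97 and 3.46 with no overlap, and Ciita, the master regulator of the class, by 1.19. Of 12 class I genes 4 were higher (1 without the block) and 1 lower, and the largest difference of the list was 0.51 (Psmb9, an immunoproteasome subunit).

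Of 23 chemokine genes, 19 were lower in CD11c+CD11b- cells and 4 higher, and 19 did not overlap (median -2.56). Cxcl2, a neutrophil attractant, was at 83.8, 72.04, 37.4, 32.7 and 46.0 CPM in CD11c+CD11b- cells and 794, 1424, 1656, 2434 and 1624 CPM in CD11c-CD11b+ cells (log2 fold change -4.89 ± 0.46 (SE), adjusted p = 0.000227), and Cxcl3 differed by -5.68. Ccl6 and Ccl9 differed by -4.20 and -4.04, the monocyte attractant gene Ccl2 by -2.56, and the T cell attractant genes Cxcl9 and Cxcl10 by -1.20 and -2.35. The 4 higher genes were Xcl1, Ccl22, Ccl17 (4.58) and Ccl5 (0.26). Of 19 receptors tested, 7 were higher and 9 lower, the former including Cxcr3 (3.08) and the latter Ccr1 (-4.17), Cx3cr1 (-2.57) and Cxcr4 (-1.92). In the interleukin 1 system 11 of 12 genes were lower. Il1b, the secreted inflammatory cytokine, was at 38.0, 114, 51.5, 128 and 79.2 CPM in CD11c+CD11b- cells and 344, 642, 1266, 1117 and 857 CPM in CD11c-CD11b+ cells (log2 fold change -3.36 ± 0.29 (SE), adjusted p = 0.00017). The receptor antagonist gene Il1rn differed by -4.32 and the inflammasome sensor gene Nlrp3 by -3.40, whereas Aim2, a sensor of DNA, was higher by 0.46.

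Genes induced by type I interferon were lower in CD11c+CD11b- cells. Of 28 tested, 24 were lower and none higher, with a median of -1.22, and 14 did not overlap. Their summed level was 2699, 4426, 3797, 3769.8 and 4023 CPM in CD11c+CD11b- cells and 4043, 9651, 7686, 10279 and 10591 CPM in CD11c-CD11b+ cells, so it was higher in CD11c-CD11b+ cells of every pool. Rsad2 (viperin), an antiviral enzyme, was at 93.0, 134, 112, 88.6 and 117 CPM in CD11c+CD11b- cells and 247, 821, 721, 1038 and 952 CPM in CD11c-CD11b+ cells (log2 fold change -2.67 ± 0.29 (SE), adjusted p = 0.000428). The untreated pool had the lowest level in CD11c-CD11b+ cells. Ifit1, which binds viral RNA, was at 79.2, 80.8, 71.1, 38.9 and 62.6 CPM in CD11c+CD11b- cells and 122, 323, 278, 348 and 343 CPM in CD11c-CD11b+ cells (-2.05 ± 0.33 (SE)). Isg15, a ubiquitin-like modifier, was at 44.3, 78.1, 65.8, 62.5 and 63.7 CPM in CD11c+CD11b- cells and 81.4, 204, 190.4, 228 and 231 CPM in CD11c-CD11b+ cells (log2 fold change -1.51 ± 0.15 (SE), adjusted p = 0.000306). Oas2 and Ifih1 differed by -2.37 and -1.55, and the interferon regulator gene Irf7 by -1.14. Among the 4 that did not pass, Irf9 was at -0.18 ± 0.06 (SE), Trim30a at -0.18 ± 0.09 (SE) and Ifi44 at 0.05 ± 0.10 (SE). Ifnar1, a chain of the type I interferon receptor, did not pass either (0.14 ± 0.07 (SE)), and Ifngr1, of the interferon gamma receptor, was higher by 1.01.

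The promoters of these genes were searched for the interferon-stimulated response element, the site of the ISGF3 complex, searched on either strand as GAAA, any 2 letters and GAAA. It was found in the 250 bases before the start of 10 of 21 listed genes with a RefSeq promoter (47.6%), against 821 of 27025 promoters overall (3.04%). It was also in 2 of 10 NK cell promoters (20%), a list that was higher in CD11c+CD11b- cells. Among called genes with a RefSeq promoter, 124 of 3068 (4.04%) of those lower in CD11c+CD11b- cells held it, and 83 of 3054 (2.72%) of those higher. The 4 windows of 80 bases below, from RefSeq on GRCm38.p6 and 5′ to 3′ on the gene's strand, show matches in capitals for 4 of these genes, all lower in CD11c+CD11b- cells. In Rsad2, Ifit1 and Ifit3 the matches are on the opposite strand and read as the reverse complement, TTTC, any 2 letters and TTTC. In Isg15 the capitals cover 3 matches that overlap. The list was chosen for interferon response, so that the share in it is a description and says nothing about which cells met interferon.
Rsad2, chr12:26456528-26456607, minus strand: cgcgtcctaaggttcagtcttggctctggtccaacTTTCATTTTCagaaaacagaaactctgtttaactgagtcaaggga
Ifit1, chr19:34640769-34640848, plus strand: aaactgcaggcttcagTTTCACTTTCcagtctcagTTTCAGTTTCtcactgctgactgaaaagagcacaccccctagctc
Ifit3, chr19:34583372-34583451, plus strand: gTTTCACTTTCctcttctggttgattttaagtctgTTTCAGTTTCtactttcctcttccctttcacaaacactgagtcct
Isg15, chr4:156200840-156200919, minus strand: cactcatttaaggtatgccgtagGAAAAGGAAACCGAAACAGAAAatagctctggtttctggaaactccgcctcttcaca

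Metabolic and effector genes of myeloid cells were mostly lower in CD11c+CD11b- cells. Arg1, which depletes arginine, was at 59.7, 92.6, 51.3, 59.0 and 52.0 CPM in CD11c+CD11b- cells and 443, 1333, 634, 2263 and 1366 CPM in CD11c-CD11b+ cells (log2 fold change -4.07 ± 0.36 (SE), adjusted p = 0.000181), Nos2, the inducible nitric oxide synthase gene, differed by -2.76 and the prostaglandin synthase gene Ptgs2 by -2.96. Of that list, 13 of 15 genes were lower and Il4i1 was higher (3.94). Thbs1, the matrix protein thrombospondin 1, was at 134, 157, 103, 98.5 and 94.1 CPM in CD11c+CD11b- cells and 1884, 4684, 4267, 7722 and 5428 CPM in CD11c-CD11b+ cells (log2 fold change -5.26 ± 0.39 (SE), adjusted p = 8.62e-05), and of 14 matrix protease and inhibitor genes 12 were lower. Of 19 genes of glycolysis and hypoxia 15 were lower (median -0.70), such as Slc2a1 (-1.57), Hk2 (-1.57) and Hilpda (-2.34), while Pfkp was higher (0.53). Cholesterol and fatty acid synthesis genes went both ways, 7 higher and 6 lower of 21, and 1 and 1 without the pool block. Their sum was highest in the untreated pool of both populations, 3521 and 3800.2 CPM. Without the RT-alone pool or the RT plus anti-PD-1 pool 3 were higher, and without the triple pool 4 were higher and 3 lower. Of 23 proliferation genes 13 were higher in CD11c+CD11b- cells and none lower (median 0.57), and 18 were higher without the untreated pool. Mki67, a marker of cycling cells, was at 465, 676, 728, 605 and 737 CPM in CD11c+CD11b- cells and 427, 283, 331, 183 and 224 CPM in CD11c-CD11b+ cells (1.20 ± 0.23 (SE)).

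**Figure D4:**
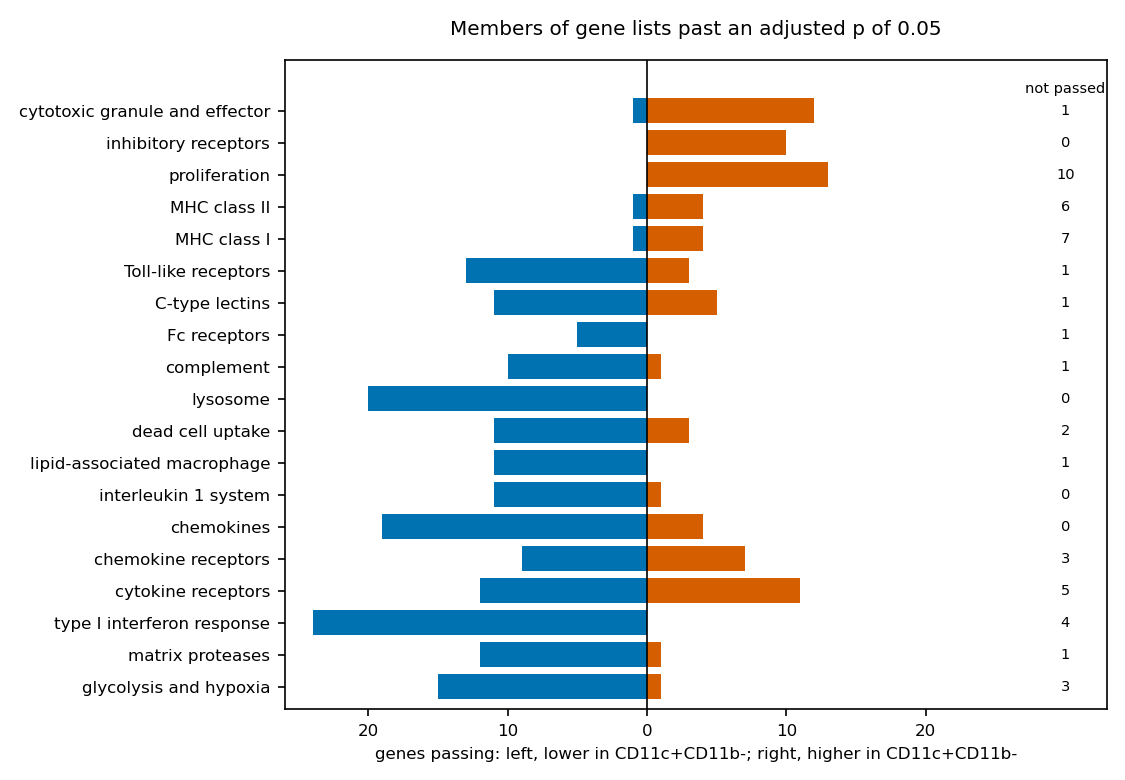
Number of genes of each of 19 lists that passed the test, to the left (blue) lower and to the right (orange) higher in CD11c+CD11b- cells, with those that did not pass in the right-hand column. Cytotoxic and inhibitory receptor genes extend to the right, 12 and 10 genes, and lysosome and interferon response genes to the left, 20 and 24.

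Some counts fell without a single pool or without the block, as did the count over all genes. Without the block 6670 genes passed instead of 8928, and 2966 instead of 4567 were lower in CD11c+CD11b- cells. Without each irradiated pool in turn, 7040, 7083, 7529 and 6834 genes passed. Whether the losses of the lists here and above went beyond this general drop was not tested. Of 9 stroma and tumour genes 3 were higher in CD11c+CD11b- cells, the adhesion genes Epcam (3.81), Cdh1 (1.94) and Pecam1 (1.77), and 3 in each alternative fit. The 4 that were lower were collagen genes and Pdgfrb, with 0 lower without the pool block, 2 without the RT-alone pool and 1 without the triple pool. Of 5 red cell genes 5 were lower, with 1 left without the block and 3 without the triple pool. Haemoglobin genes such as Hbb-bs (-1.21) are near-identical copies, and their sum was 35.4 to 159 CPM in CD11c+CD11b- and 127 to 261 CPM in CD11c-CD11b+ cells. Of 8 endosomal trafficking genes of pDC and cross-presenting cells, 5 were higher and 1 lower, and 3 were higher without the RT-alone or the triple pool. Of 7 NADPH oxidase genes 5 were lower, and 3 without the block. Of 16 integrin genes 10 were higher and 6 lower, the sorted chains included. Of 7 Ly6 genes 6 were lower and Ly6d was higher.

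Set beside the CD11c+CD11b+ cells of the same pools, in a fit of all 15 myeloid libraries and 19767 genes, CD11c+CD11b- cells were higher than both other populations for 3788 genes (19.2%) and lower than both for 3482 (17.6%). The CD11c-CD11b+ cells were higher than both others for 1198 genes (6.06%) and lower for 935 (4.73%). The 12 NK genes were all higher in CD11c+CD11b- cells than in both others, as were 11 of 12 pDC genes, 6 of 12 cDC1 genes and 6 of 12 mature dendritic cell genes. Under the rule for named genes, the smaller of the 2 log2 differences was largest for Dntt (7.01), Siglech (6.50), Klk1, Ly6d and D13Ertd608e (each 6.26). Siglech was at 0.995, 1.39, 0.521, 1.85 and 0.720 CPM in CD11c+CD11b+ cells. By contrast 13 of 14 macrophage genes were lower in CD11c+CD11b- cells than in both others and 0 were highest in CD11c-CD11b+ cells. The C1qa mean was 1168 ± 302 CPM (SD, n = 5) in CD11c+CD11b+ cells against 476 ± 91.2 CPM (SD, n = 5) in CD11c-CD11b+ and 89.5 ± 31.8 CPM (SD, n = 5) in CD11c+CD11b- cells. Of the class II genes 7 of 11 were lowest in CD11c-CD11b+ cells, and none was highest in CD11c+CD11b- cells.

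In CD11c-CD11b+ cells, 12 of 13 tested neutrophil genes were higher than in both other populations, and 3 of 12 monocyte genes. Under the rule for named genes, the smaller of the 2 log2 differences was largest for S100a9 (3.55), S100a8 (3.43), Retnlg (3.37), Stfa2l1 (3.31) and Ccr3 (3.19). S100a9 was at 106, 19.1, 115, 30.8 and 17.4 CPM in CD11c+CD11b+ cells, below the CD11c-CD11b+ library of the same pool in all 5 pools. Stfa2l1, a stefin-like protease inhibitor of neutrophils, was at 4.16, 2.24, 3.52, 2.08 and 1.24 CPM there and at 0.583, 0.185, 0, 0 and 0 CPM in CD11c+CD11b- cells and 11.6, 16.7, 34.9, 39.4 and 21.5 CPM in CD11c-CD11b+ cells. The order of the 3 populations was the same for the receptor gene Ccr3, at 3.91, 1.42, 0.674, 1.41 and 0.720 CPM in CD11c+CD11b+ cells.

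Whether the separation of the populations differed between treatments was tested as an interaction. The fit for irradiation left 3 residual degrees of freedom and rested on 1 untreated pool. A small number of calls therefore does not show that the separation stayed the same. With irradiation, 2 of 18981 genes (0.0105%) passed the adjusted threshold, and 2484 had an unadjusted p under 0.05. Siglech differed between the populations by 5.65 ± 0.42 (SE) more, on the log2 scale, in the 4 irradiated pools than in the untreated pool (adjusted p = 0.0340). For Mycl (chr4:122995652-123002485, plus strand), a MYC family factor active in dendritic cells, the interaction was 5.00 ± 0.37 (adjusted p = 0.0340). Mycl was at 3.89, 46.5, 16.8, 60.6 and 38.6 CPM in CD11c+CD11b- cells and 1.78, 0.813, 0.276, 0.577 and 0.606 CPM in CD11c-CD11b+ cells. Neither passed without the RT-alone pool (Siglech 5.91, adjusted p = 0.134, and Mycl 5.12, adjusted p = 0.137) or without the triple pool (Siglech 5.40, adjusted p = 0.322, and Mycl 4.98, adjusted p = 0.323). Siglech also did not pass without the RT plus anti-PD-1 pool (5.50, adjusted p = 0.0757). There was 1 untreated pool, whose libraries also held the most collagen RNA, so irradiation and the other properties of that pool cannot be told apart. The CD8 T library of that pool also went against its label. The CD11c+CD11b- and CD11c-CD11b+ libraries of the pool differed in Itgax and Itgam in the direction of their labels, but their labels were not tested further. Over lists, the median interaction was 3.63 for pDC, 2.30 for cDC1, 2.84 for dendritic cell lineage and 2.31 for class II genes, against 0.04 over all genes. It was -1.37 for NK genes, of which 1 of 12 lay above 0, against 10055 of the 18981 genes tested. No NK gene passed singly. The NK list was not alone in this. The list of mast cells, basophils and eosinophils had a lower median, -1.91. The cytotoxic, chemokine and complement lists each had a median of -1.15.

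**Figure D5:**
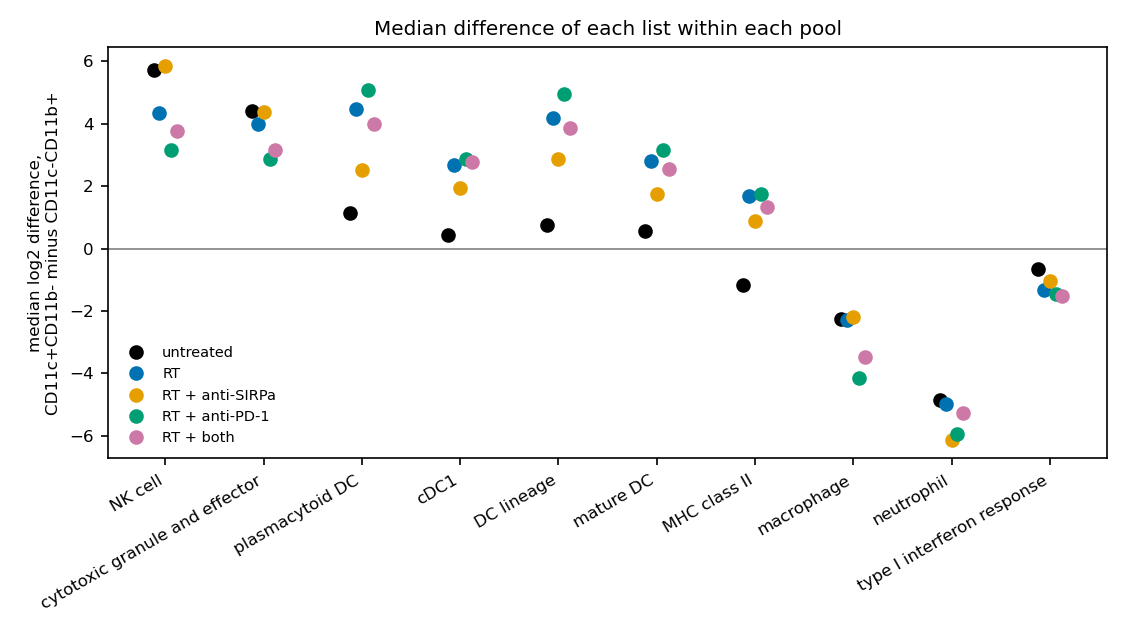
Median over the genes of 10 lists of the log2 difference within a pool, CD11c+CD11b- minus CD11c-CD11b+, 1 point a pool. The untreated pool (black) is lowest for the dendritic cell lists and for MHC class II, where its median is -1.16 against 0.87 to 1.76 in the irradiated pools, but not for NK genes.

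Within the 4 irradiated pools the median difference of NK genes was 4.35 with RT alone, 5.85 with anti-SIRPa added, 3.15 with anti-PD-1 added and 3.76 in the triple pool. The pDC medians were 4.48, 2.52 and 5.09 in the first 3 of these pools, with the triple pool between the first and the second, so the pool with the largest NK difference had the smallest pDC difference. For either antibody 1 gene of 19212 (0.00521%) had an interaction that passed, from a fit with 1 residual degree of freedom. It was the same predicted gene model, Gm26885 (chr17:29446919-29491925, minus strand), at -6.24 ± 0.19 for anti-PD-1 and -7.08 ± 0.19 for anti-SIRPa (log2, SE; adjusted p = 0.0126 and 0.00661). The rule for named genes leaves out such models, and this one is named because it was the only call, after its values were seen. Its levels were 9.81, 30.2, 17.9, 43.4 and 0.340 CPM in CD11c+CD11b- cells and 13.8, 0.426, 35.1, 47.8 and 50.2 CPM in CD11c-CD11b+ cells, low in 1 library of either population. Both calls were lost when the term of the other antibody was dropped (-4.11 and -5.25, adjusted p = 0.761 and 0.990). They were also lost when no filter on low counts was set, with sizes of -6.27 and -7.09 (adjusted p = 0.461 and 0.298). Unadjusted p-values under 0.05 were found for 1866 genes with anti-PD-1 and 1231 with anti-SIRPa.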

How the data were processed

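RNA of cells sorted from pooled MC38-OVA tumours was sequenced in 20 libraries, of which 10 enter the main comparison. Per the submitters' processing notes, the tools included FastQC 0.11.8, HISAT2, StringTie and edgeR 3.34.0, with mouse build GRCm38. The authors deposited 1 table of estimated counts per transcript, in whole numbers, and whether the counting used strand is not given in the sources used here. Of 142699 transcripts, 141469 matched a GENCODE transcript name of GRCm38 and were summed to 55260 genes. The 1230 others, at most 0.399% of the counts of any of the 10 libraries, were left out.

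The main test was edgeR 4.0.16 (R 4.3.3): filterByExpr with a minimum count of 10 and minimum total of 15, TMM, a quasi-likelihood F-test with the pool as a block, and Benjamini-Hochberg adjustment over all genes tested. Standard errors are approximate, derived from the log2 fold change and the F statistic. CPM levels are scaled over all 20 libraries. Pairing comes from the labels, which put both populations of a pool in the same tumours. After removal of population means, same-pool libraries correlated at 0.519, -0.105, 0.161, 0.283 and 0.339, and the best correlation with a library of another pool was 0.284, 0.131, 0.201, 0.385 and 0.227, higher than the same-pool value in 3 of 5 pools. Interactions used the same test, with 4 irradiated pools for the antibodies. Genes differing from the CD11c+CD11b+ cells came from a fit of 15 libraries. On counts simulated for the main comparison, 18706 genes were run, changed and unchanged together. Of these, 87 of 100 genes changed 2-fold and 100 of 100 changed 4-fold were called, with 8 unchanged genes. The simulated counts had a common dispersion for all genes and no pool effects, and far fewer changed genes than were called here. These rates therefore need not hold for the data.

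The alternatives were RLE normalisation, DESeq2 1.42.0, other filters, no block and each pool left out. Named genes were up to 10 per direction with the largest change among those called, at 10 CPM or more in 2 libraries and of the same direction in all 5 pools, without predicted models, receptor segments and pseudogenes, and up to 5 per direction for interactions and for genes particular to 1 population, plus members of the lists. The members and lists were chosen with earlier results of these data known. Some listed genes are not reported here by name. Promoters are those of RefSeq on GRCm38.p6, matched by symbol. The letters of a T-box motif (AGGTGTGA) and an E-box motif (CACCTG) were searched too. The first was in 0 of 10 NK cell promoters and 1.14% of all promoters. The second was in 3 of 8 pDC promoters, 5 of 14 neutrophil promoters and 17.1% of all promoters.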

Additional observations from a re-analysis of the deposited data

Results flagged for a closer look

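In 508 groups of 5 libraries (a named gene or a list sum in 1 population), 38 had a library whose gap to its nearest neighbour took more than 0.71 of the range, where chance alone gives about 1 in 20. In 27 of these it was the library of the untreated pool. The values below are in CPM, and the part of the pool's other properties was not tested. Summed over a list, the untreated CD11c+CD11b- library stood apart with 5888 for tumour and stroma genes (highest) and 3067 for integrin genes (lowest). The untreated CD11c+CD11b- library was apart as the highest for Cebpd at 18.03, Chil1 at 0.184, Col3a1 at 4975, Lrp1 at 622, Pdgfrb at 70.1 and Ptgs2 at 285. The untreated CD11c+CD11b- library was apart as the lowest for Id2 at 308, Il27ra at 25.2 and Trim30a at 163. The CD11c+CD11b- library of the RT-alone pool was apart with Arg1 at 92.6 (highest), Ccr1 at 42.4 (highest), F10 at 5.18 (highest), Fcgr1 at 71.2 (highest) and Hp at 1.55 (highest). The CD11c+CD11b- library of the RT plus anti-PD-1 pool was apart with Ly6g at 0.125 (highest). The CD11c+CD11b- library of the triple pool was apart with Cd300lb at 0.302 (highest). Summed over a list, the untreated CD11c-CD11b+ library stood apart with 18 for B cell genes (highest). The untreated CD11c-CD11b+ library was apart as the highest for Cacna1e at 0.388, Cadm1 at 26.4, Ccl22 at 6.50, Cx3cr1 at 267, D13Ertd608e at 0.129, Fcgrt at 37.0, Gpr33 at 0.259 and Itgax at 122. The untreated CD11c-CD11b+ library was also apart as the highest for Lef1 at 10.7, Sept3 at 0.194, Timd4 at 0.259 and Tlr12 at 7.21. The untreated CD11c-CD11b+ library was apart as the lowest for Ccl5 at 59.1, Isg15 at 81.4 and Oas2 at 109. The CD11c-CD11b+ library of the RT-alone pool was apart with Il4i1 at 0.155 (lowest). The CD11c-CD11b+ library of the RT plus anti-SIRPa pool was apart with Cd74 at 908 (lowest), Lcn2 at 78.4 (highest) and Ly6g at 4.53 (highest).

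A difference between treatments in the separation of the populations passed the test for 3 genes, as the interaction results above give. Siglech (5.65, log2) and Mycl (5.00) differed between the irradiated pools and the untreated pool. Gm26885 differed with anti-PD-1 (-6.24) and with anti-SIRPa (-7.08), and the library of the triple pool was its lowest in CD11c+CD11b- cells while that of the RT-alone pool was its lowest in CD11c-CD11b+ cells.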

How the results depend on the processing

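Of the 208 named genes tested, 186 passed. Their side of the threshold and direction stayed the same for 207 genes with RLE normalisation (1 gained), 204 with DESeq2 (4 gained), 203 with no filter (5 lost) and 193 with no pool block (11 lost, 3 gained). RLE normalisation shifted the median of all genes by -0.035, and the share of calls that were higher in CD11c+CD11b- cells was 48.8% as reported, 45.3% with RLE, 45.0% with DESeq2 and 55.5% without the block. Without the pairing by pool 6670 genes passed, 3704 higher and 2966 lower. Leaving out 1 pool at a time gave 6834 to 9353 genes, 3267 to 4693 higher and 3567 to 4660 lower. The irradiation interaction had 0 genes with no filter, 513 with DESeq2 (250 higher, 263 lower), and 0 to 129 without 1 pool (0 to 102 higher, 0 to 27 lower). The anti-PD-1 interaction had 0 genes with no filter, 3 (3 lower) with a minimum of 1 CPM in 5 libraries, 189 with DESeq2 (19 higher, 170 lower) and 0 with the anti-SIRPa term dropped. The anti-SIRPa interaction had 2 with RLE (1 higher), 0 with no filter, 2 with the stricter filter (1 higher), 21 with DESeq2 (8 higher, 13 lower) and 0 with the anti-PD-1 term dropped. Against both other myeloid populations, 612 genes were lower in CD11c-CD11b+ cells with no filter. Without 1 pool, 6610 to 9129 genes differed from both others, 2925 to 4055 higher and 2930 to 3798 lower in CD11c+CD11b- cells, and 509 to 1425 higher and 361 to 1075 lower in CD11c-CD11b+ cells. Some genes that had not passed changed sign. Cd163 was at 0.14 in the fit of 15 libraries and ranged from -0.47 to 0.40 (without the untreated pool) with 1 pool left out. Cd3e was at 0.00068 without the block and ranged from -0.24 to 0.069 (without the untreated pool). Gm26885 was at 0.012 in the fit of 15 libraries and ranged from -1.45 to 0.38 (without the triple pool). Ifi44 ranged from -0.019 (without the RT plus anti-SIRPa pool; -0.0093 without the triple pool) to 0.13, and Ppt1 from -0.070 (without the RT-alone pool; -0.012 without the triple pool) to 0.21. The cause of these changes was not tested. With 1 residual degree of freedom the antibody interactions could not be refitted without a pool.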
